A study of Homo sapiens with 2 samples.

Results

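A set of 10 splicing and RNA-binding regulators, chosen by symbol, was followed in an enzalutamide-resistant prostate cancer line and its sensitive counterpart: NOVA1, NOVA2, ELAVL1, ELAVL2, RBFOX2, SRRM4, PTBP1, PTBP2, ESRP1 and ESRP2. All 10 were found among the 25343 rows of the deposited gene table. The libraries came from C4-2B cells, a castration-resistant subline of the LNCaP prostate cancer line. C4-2B ENZR cells, enzalutamide-resistant, were kept in 20 µM enzalutamide, an antiandrogen. C4-2B Con cells, enzalutamide-sensitive, were kept in parallel in medium with DMSO. The suffix shC in each sample title has no explanation in the labels. Each line gave 1 library of total RNA, so resistance, the presence of the drug and the history of the culture cannot be told apart.

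Alternative splicing in neurons and epithelia is steered by proteins that bind pre-mRNA near regulated exons. NOVA proteins bind YCAY clusters and RBFOX proteins bind UGCAUG, and both shape neuronal exon choice. SRRM4 promotes the inclusion of neuronal microexons and has been linked to neuroendocrine prostate cancer. PTBP1 represses neuronal exons in most non-neuronal cells, and PTBP2 is its paralog in neurons. ESRP1 and ESRP2 hold epithelial isoforms of genes such as FGFR2 and CD44. The table gives a single value per gene, so levels of the regulators were measured and the exons they act on were not.

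The recovered depth was 23479051 reads in ENZR and 21024484 reads in Con. Values are TMM-normalized CPM (counts per 1000000 reads, with the library size adjusted by TMM scaling). In these units 1 read was worth 0.0404 CPM in ENZR and 0.0490 CPM in Con. Ratios are ENZR over Con with an exact 95% interval (Clopper-Pearson) from the reads, which covers counting error only. No library has a replicate, so no test of the lines was possible and no p-value is given. Counts past 2-fold use the difference in log2(CPM + 1) over the 13803 genes that averaged 1 CPM or more, a scale that understates the change of low genes. The members were picked with results of these data known, so their values are a description. The luminal markers KRT8, KRT18, EPCAM and CDH1 lay between 96.5 and 802 CPM in both libraries. A set of 12 neuroendocrine markers, of which 3 averaged 1 CPM or more, summed to 92.2 CPM in ENZR and 10.3 CPM in Con. The single marker ENO2 gave 87.1 CPM of the ENZR sum and 8.33 CPM of the Con sum.

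Of the 10 regulators, 8 reached a mean of 1 CPM over both libraries, here called measured, and NOVA2 and SRRM4 did not. Among the 8, PTBP2 passed 2-fold upward in ENZR, NOVA1 passed 2-fold downward, and 6 lay in between. Over all genes, 6.69% passed 2-fold upward and 4.64% downward. The median difference of the 8 was -0.33 on the log2 scale, against -0.006 over all genes.

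**Figure D1:**
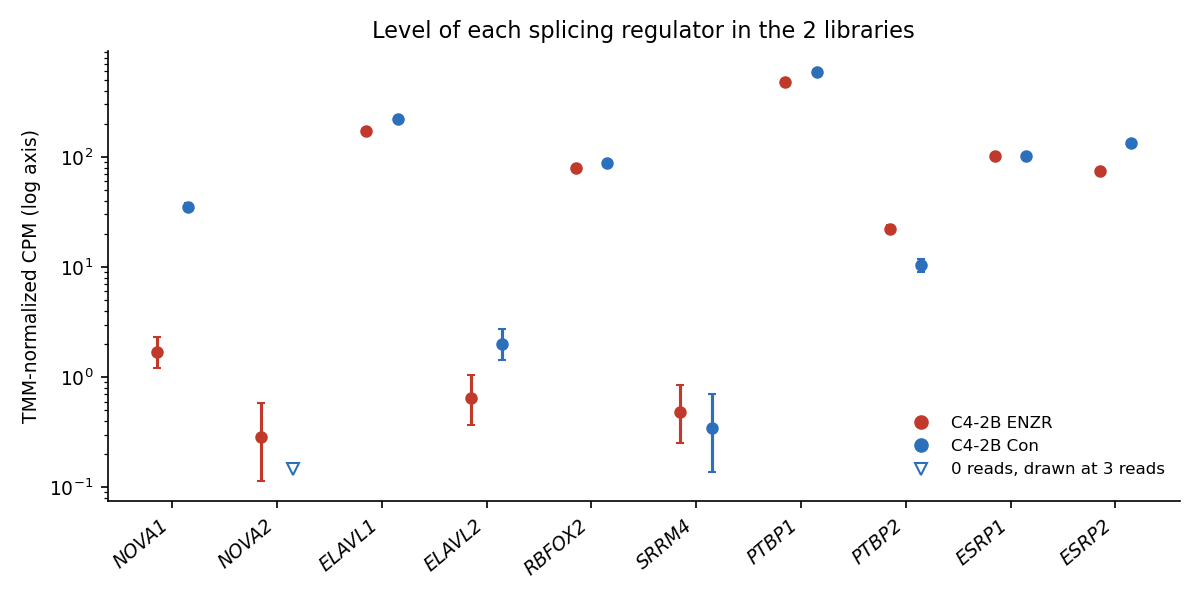
TMM-normalized CPM (log axis) of each regulator in the ENZR library (red) and the Con library (blue), with exact Poisson 95% intervals for counting error. NOVA1 stands at 1.70 CPM in ENZR and 35.2 CPM in Con, PTBP2 at 22.3 CPM in ENZR and 10.4 CPM in Con, and NOVA2, without reads in Con, is drawn there at the level of 3 reads.

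The NOVA genes encode KH-domain proteins first known as neuronal autoantigens. NOVA1 had 42 reads (1.70 CPM) in ENZR and 718 reads (35.2 CPM) in Con. It was 20.7-fold lower in ENZR, with a counting interval of 15.2 to 29.0. Its log2 difference of -3.74 ranked 31st from the lowest among the 13803 genes. In bulk RNA, fewer cells that express a gene and less RNA per cell cannot be told apart. NOVA2, the paralog that predominates in cortical neurons, had 7 reads (0.283 CPM) in ENZR and 0 reads in Con. Its ENZR value was 1.93 times the floor of 3 reads in the Con library, and the exact interval of the ratio began at 1.19, at a level near the detection limit. The sensitive line thus carried NOVA1 at a moderate level with no read of NOVA2, and the resistant line carried little of either gene.

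ELAVL proteins bind AU-rich and U-rich RNA and affect mRNA stability as well as splicing. ELAVL1, the ubiquitous member also called HuR, had 173 CPM in ENZR and 220.4 CPM in Con. The ratio was 0.784 (0.751 to 0.817). ELAVL2, a neuronal member, had 16 reads (0.647 CPM) in ENZR and 41 reads (2.01 CPM) in Con, 3.10-fold lower with a counting interval of 1.70 to 5.93. The interval is wide because the gene was close to the lower limit of measurement in both libraries. The remaining neuronal paralogs were nearly silent: ELAVL3 had 3 reads in ENZR and 1 in Con, and ELAVL4 had 1 read in ENZR and 0 in Con.

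RBFOX2, the family member of broad expression, which acts in epithelia, muscle and neurons, had 80.0 CPM in ENZR and 88.5 CPM in Con. The ratio was 0.904 (0.848 to 0.964), with a log2 difference of -0.14 where the median of all genes was -0.006. With the TMM scaling undone these values were -0.03 and 0.103. RBFOX3, the neuronal nuclear antigen NeuN, had 10 reads in ENZR and 7 in Con, and RBFOX1 had 0 reads in each. SRRM4 had 12 reads (0.485 CPM) in ENZR and 7 reads (0.343 CPM) in Con, a ratio of 1.41 (0.514 to 4.24). A difference in SRRM4 was therefore not resolved at this depth, as the interval includes 1. SRRM3, which shares the microexon activity of SRRM4, had 3.92 CPM in ENZR and 4.56 CPM in Con, a ratio of 0.861 (0.641 to 1.16).

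PTBP1, a repressor of exons next to pyrimidine-rich tracts, had the highest level per exon length of the 10. It had 11759 reads (476 CPM) in ENZR and 12038 reads (589.8 CPM) in Con, a ratio of 0.806 (0.786 to 0.827). PTBP2 had 552 reads (22.3 CPM) in ENZR and 213 reads (10.4 CPM) in Con, a ratio of 2.14 (1.82 to 2.52). It was the single regulator of the 8 at least 2-fold higher in ENZR. PTBP3, the third paralog, had 106 CPM in ENZR and 134 CPM in Con, a ratio of 0.792 (0.751 to 0.836). PTBP1 and PTBP3 were thus lower and PTBP2 higher in the resistant line.

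PTBP1 is known to repress exon 10 of PTBP2, and the shortened transcript is then degraded, which keeps PTBP2 low where PTBP1 is abundant. That exon is shown because it is the known link between the genes of this pair. It is a coding exon of 34 bases at chr1:96806419-96806452, plus strand, on GRCh38, read from the GENCODE 29 transcripts, of which 4 of 4 in the basic set contain it. In the line below every base is lower case, since no part of it was measured separately.
PTBP2 exon 10: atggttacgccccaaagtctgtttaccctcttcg
Its inclusion could not be read from the gene-level values.

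ESRP1 and ESRP2 are paralogs expressed in epithelial cells. ESRP1 had 102 CPM in ENZR and 101 CPM in Con, and its ratio of 1.01 had a counting interval of 0.955 to 1.07. With the TMM scaling undone its log2 difference was 0.13, against 0.103 for the median of all genes. ESRP2 had 74.3 CPM in ENZR and 133 CPM in Con, 1.79-fold lower (1.69 to 1.90). Per kilobase of exon, ESRP1 stood above ESRP2 in ENZR (26.5 and 19.4 CPM per kb) and below it in Con (26.1 and 34.7 CPM per kb).

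**Figure D2:**
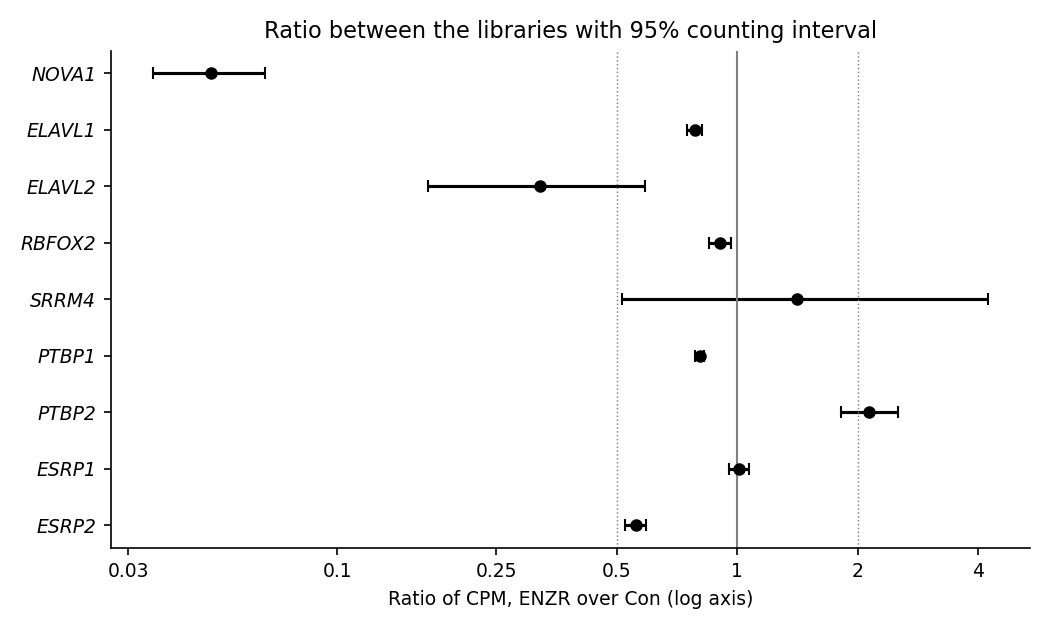
Ratio of CPM of ENZR over Con (log axis) for the 9 regulators with reads in both libraries, with exact 95% counting intervals. Dotted lines mark 2-fold in either direction. NOVA1 lies at 0.0483, PTBP2 at 2.14, and the interval of SRRM4 spans 0.514 to 4.24.

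A ratio of 2 genes within a library does not depend on the scaling between libraries. For every 100 CPM of PTBP1 there were 4.69 CPM of PTBP2 in ENZR and 1.77 CPM in Con, so the balance of PTBP2 to PTBP1 was 2.65-fold higher in ENZR (2.26 to 3.13). For every 100 CPM of ESRP2 there were 138 CPM of ESRP1 in ENZR and 75.8 CPM in Con, 1.82-fold higher (1.67 to 1.98). The balance of ELAVL2 to ELAVL1 was 0.375 per 100 CPM in ENZR and 0.911 per 100 CPM in Con, 2.43-fold lower (1.33 to 4.65). With 5 CPM added to each value, the ELAVL ratio of ratios moved from 0.411 to 1.02, so it rests on the low ELAVL2 counts. For NOVA1 over NOVA2 the ENZR library held 42 against 7 reads and the Con library 718 against 0 reads.

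Levels of different genes were compared per kilobase of exon, with exon lengths from GENCODE 29 on GRCh38, since no source used here gives the gene models of the authors. In ENZR the order was PTBP1 (129 CPM per kb), ELAVL1 (27.5), ESRP1 (26.5), ESRP2 (19.4), RBFOX2 (11.0), PTBP2 (1.86), NOVA1 (0.302), ELAVL2 (0.138), SRRM4 (0.0572) and NOVA2 (0.0363). In Con the order was PTBP1 (159 CPM per kb), ELAVL1 (35.1), ESRP2 (34.7), ESRP1 (26.1), RBFOX2 (12.2), NOVA1 (6.26), PTBP2 (0.868), ELAVL2 (0.430), SRRM4 (0.0405) and NOVA2 (listed at 0). The epithelial and ubiquitous regulators therefore stood above all neuronal ones in both libraries. PTBP2 stood above NOVA1 in ENZR and below it in Con. Neighbours in these orders such as ELAVL1 and ESRP1 in ENZR are close, and without replicates or the authors' gene lengths their order is uncertain.

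**Figure D3:**
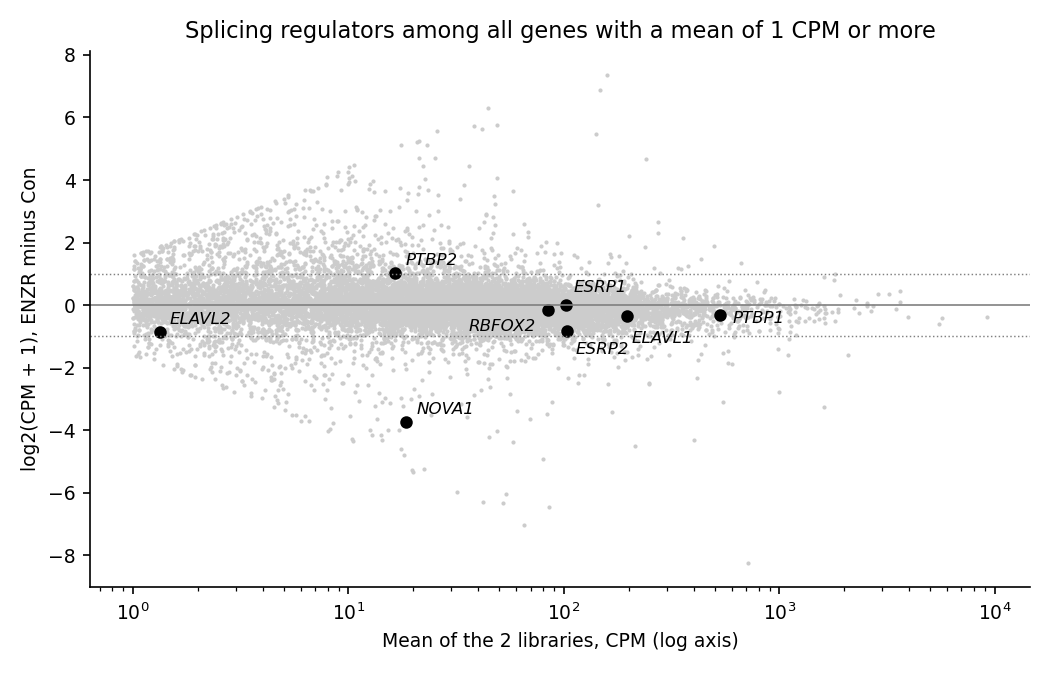
Difference in log2(CPM + 1), ENZR minus Con, against the mean CPM of the 2 libraries (log axis) for the 13803 genes that averaged 1 CPM or more (grey), with the 8 measured regulators in black and dotted lines at 2-fold. NOVA1 at -3.74 lies far below the bulk of genes at its level, PTBP2 at 1.03 just past the upper line, and ELAVL2 at -0.87 and ESRP2 at -0.84 just inside the lower one.

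Reads of 50 bases can be split wrongly between related genes, so shared sequence was counted. Among the GENCODE 29 transcripts, none of the 10 regulators shared a 50-base window with another of the 10. The longest identical run was 12 bases between PTBP2 and PTBP1, 17 between NOVA1 and NOVA2, 18 between ELAVL2 and ELAVL1, and 17 between ESRP1 and ESRP2. Of 6203 windows of ELAVL1, 434 matched the opposite strand of AC010336.6, and of 3836 windows of ESRP2, 100 matched the opposite strand of NFATC3. PTBP2 shared 59 of its 12075 windows with transcripts of other genes on the same strand and 28 on the opposite strand, and SRRM4 shared 11 of 8428 on each strand. No source used here says whether strand was used, so reads from those stretches cannot be told apart.

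The position of each gene was compared with its 20 nearest measured genes, 10 on each side. Around NOVA1 on chromosome 14 the median log2 difference was 0.28, the lowest neighbour was DHRS1 at -0.57, and 0 of the 20 were at least 2-fold lower. Of these 20 neighbours, 9 lay below 0, and NOVA1, at -3.74, lay below all 20. Around PTBP2 on chromosome 1 the median was 0.23, which left PTBP2 0.80 above its neighbours. PTBP1 and ELAVL1 lie on chromosome 19, whose 984 measured genes had a median of -0.22. Neighbours of PTBP1 had a median of -0.42 and those of ELAVL1 -0.38, so relative to their neighbours these genes stood at 0.11 and 0.04. Neighbours of ESRP2 had a median of -0.21, which left ESRP2 at -0.63, and ESRP1 went to -0.10. The part of chromosome position in these differences was not tested.

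**Figure D4:**
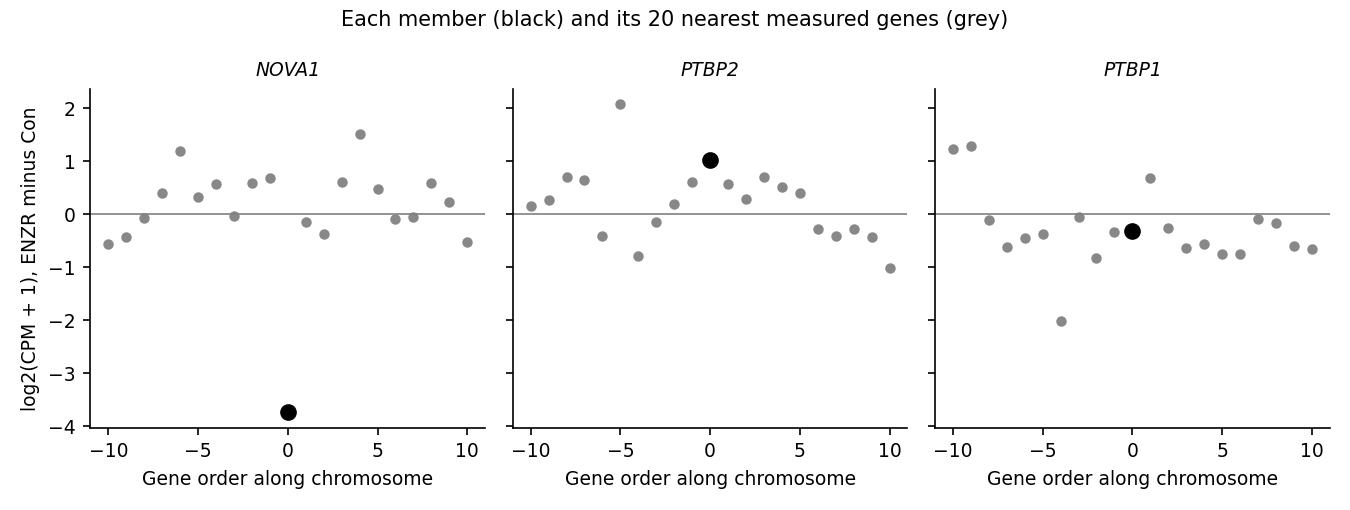
Difference in log2(CPM + 1), ENZR minus Con, of NOVA1, PTBP2 and PTBP1 (black) and of the 10 nearest measured genes on each side (grey), in gene order along the chromosome. NOVA1 at -3.74 lies below all 20 neighbours, whereas PTBP1 at -0.31 lies within the range of its neighbours.

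Related regulators outside the 10 were read from lists chosen by gene function, with earlier results of these data known. Of 13 other neuronal splicing regulators, 5 were measured, with 2 past 2-fold upward and 0 downward, beside 6.69% and 4.64% over all genes. MSI1, Musashi-1, an RNA-binding protein of neural progenitors, had 19.4 CPM in ENZR and 2.99 CPM in Con, a ratio of 6.50 (4.97 to 8.62). RBM11, a tissue-restricted splicing regulator, had 55 reads in ENZR and 4 in Con, a ratio of 11.3 (4.19 to 43.1). The list's median was 0.13, against -0.006 over all genes, and the other measured members lay between -0.27 and 0.13.

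Among 11 muscle and mesenchymal splicing regulators, 10 were measured, with 1 past 2-fold upward, 2 downward and a median of -0.10. The shares over all genes were 6.69% upward and 4.64% downward. RBM24, a muscle splicing regulator, had 5.98 CPM in ENZR and 60.8 CPM in Con, 10.2-fold lower (8.57 to 12.1). MBNL2, a muscleblind protein, had 11 reads (0.445 CPM) in ENZR and 86 reads (4.21 CPM) in Con, 9.47-fold lower (5.04 to 19.7). CELF2, of the CELF family of muscle and brain, had 67 reads (2.71 CPM) in ENZR and 0 reads in Con, 18.4 times the floor of 3 reads in that library, with an exact interval of the ratio that began at 14.6. RBM24 had the lowest log2 difference of the 6 related lists, at -3.15.

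Of the 17 partner and general splicing proteins, all were measured and 0 lay past 2-fold in either direction, with a median of -0.04, or 0.08 with the TMM scaling undone. At shares of 6.69% upward and 4.64% downward over all genes, a count of 0 among 17 does not set this list apart. The differences of these 17 proteins spanned -0.63 to 0.49. The lowest was RBM47, an epithelial RNA-binding protein, with 62.8 CPM in ENZR and 97.6 CPM in Con, 1.55-fold lower (1.45 to 1.66).

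REST, the repressor of neuronal genes whose splicing SRRM4 can switch to a truncated form, had 74.1 CPM in ENZR and 77.9 CPM in Con, a ratio of 0.951 (0.889 to 1.02). Of 15 genes of the REST axis and neuroendocrine transcription factors, 8 were measured, with 2 past 2-fold upward, 0 downward and a median of 0.15. All genes had 6.69% past 2-fold upward, 4.64% downward and a median of -0.006. RCOR2, a REST corepressor, had 71 reads in ENZR and 18 in Con, a ratio of 3.26 (1.92 to 5.80), and MYT1, a neural zinc finger factor, had 120 reads in ENZR and 38 in Con, a ratio of 2.61 (1.80 to 3.86). INSM1, a neuroendocrine zinc finger factor, had 0 reads in each library. Of 12 neuroendocrine markers, 3 were measured. ENO2, neuron-specific enolase, with 87.1 CPM in ENZR and 8.33 CPM in Con, made up most of the ENZR sum, and NCAM1 had 73 reads in ENZR and 3 in Con. SYP, synaptophysin, had 1.29 CPM in ENZR and 1.67 CPM in Con, and CHGA, chromogranin A, had 3 reads in ENZR and 0 in Con.

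ESRP genes are known to be repressed by ZEB factors during epithelial-mesenchymal transition (EMT). ZEB1 had 6 reads in ENZR and 2 in Con, and ZEB2 had 0 reads in each. SNAI1 had 6.23 CPM in ENZR and 4.90 CPM in Con, a ratio of 1.27 (0.982 to 1.65), and SNAI2 had 17 reads in ENZR and 18 in Con. GRHL2, an epithelial transcription factor, had 184 CPM in ENZR and 189 CPM in Con, a ratio of 0.973 (0.932 to 1.02). Of the 14 EMT factors and epithelial guardians, 8 were measured, and 1 lay past 2-fold, beside 6.69% upward and 4.64% downward over all genes. That was ELF3, an epithelial ETS factor, with 50.3 CPM in ENZR and 16.2 CPM in Con (ratio 3.11, 2.76 to 3.53). CDH1, E-cadherin, was 1.66-fold lower in ENZR (484 CPM in ENZR and 802 CPM in Con), CDH2, N-cadherin, had 0 reads in each, and VIM, vimentin, had 38.5 CPM in ENZR and 31.8 CPM in Con. A set of 12 mesenchymal markers summed to 721 CPM in ENZR and 284 CPM in Con. Of these, 5 were measured, with 2 past 2-fold upward and 0 downward, where all genes had 6.69% and 4.64%. FN1 held most of the sum (633 CPM in ENZR and 229 CPM in Con), and COL1A1 had 44.4 CPM in ENZR and 18.1 CPM in Con. Of the 5 measured, 4 lay above 0 and 1 below, PDGFRB, with 1.66 CPM in ENZR and 2.45 CPM in Con (ratio 0.677, 0.437 to 1.04). Among markers whose mean was under 1 CPM, LUM, lumican, had 32 reads in ENZR and 0 in Con. SPARC had 5 reads in ENZR and 12 in Con, COL3A1 had 0 in ENZR and 5 in Con, and CDH2 and COL1A2 had no reads in either library. The part of these markers in the ESRP2 difference was not tested.

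**Figure D5:**
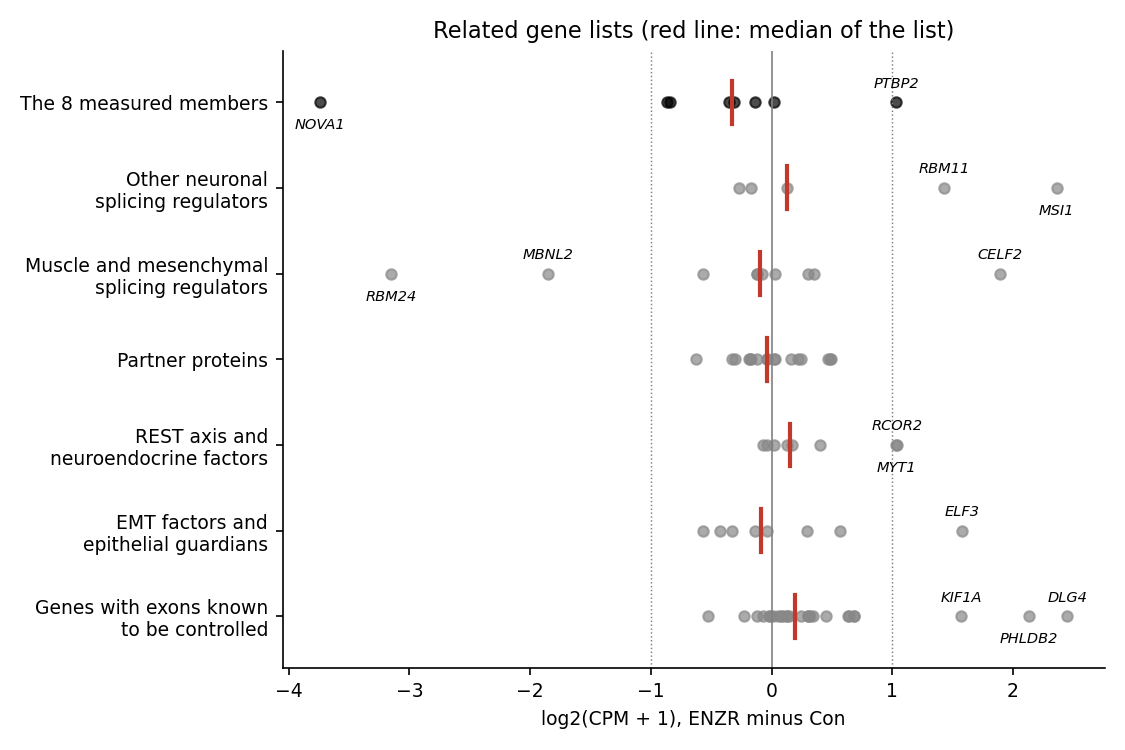
Difference in log2(CPM + 1), ENZR minus Con, of each measured gene of the 8 regulators and of 6 related lists, with the median of each list in red, dotted lines at 2-fold and the genes past it named. The 17 partner proteins all lie between the dotted lines, and NOVA1 and RBM24 are the lowest points, at -3.74 and -3.15.

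The last list held 27 genes with alternative exons that these regulators are known to control. Of the 26 measured, 3 passed 2-fold upward and 0 downward at the gene level, beside 6.69% and 4.64% over all genes. Of the 26, 20 lay above 0, against 6827 of all 13803 genes, and the median was 0.19 against -0.006. The list was chosen with earlier results of these data known, so these values are a description, and control by the regulators was not tested. DLG4, the postsynaptic scaffold PSD-95, whose transcripts are degraded where PTB proteins exclude an exon, had 27.8 CPM in ENZR and 4.26 CPM in Con, a ratio of 6.52 (5.21 to 8.24). KIF1A, a neuronal kinesin, had 269 CPM in ENZR and 89.9 CPM in Con, a ratio of 2.99 (2.84 to 3.15). PHLDB2, an adaptor at the cell cortex, had 110 reads in ENZR and 5 in Con, a ratio of 18.2 (7.55 to 57.0). Of the classical ESRP targets, FGFR2 had 3.76 CPM in ENZR and 3.33 CPM in Con, a ratio of 1.13 (0.817 to 1.57), and CD44 had 1 read in ENZR and 0 in Con. These are totals over all isoforms of a gene.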

How the data were processed

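RNA-seq of 2 libraries, 1 per line, was analysed. The deposited signal values are the authors' TMM-normalized CPM per gene, made from single reads of 50 bases per the labels. Bowtie2 2.1.0, RSEM 1.2.15, edgeR and the build hg19 appear in the submitters' processing notes, with no roles. Every value was a whole multiple of 1 step per library (100% within 0.01 reads), so whole reads were recovered, and these may be rounded estimates. The columns summed to 949450 CPM in ENZR and 1030021 CPM in Con. With 1 library per line edgeR's test has no residual degrees of freedom and was not run.

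Ratios, log2(CPM + 1) differences with a mean of 1 CPM or more, exact counting intervals and a floor of 3 reads were computed with Python 3.11.15 and scipy 1.17.1. The calculation was tested on simulated reads. The 10 members and all lists were chosen with earlier results of these data known. Named genes were the members, up to 4 genes past 2-fold from each list, and 20 genes fixed by name, and some of them are not reported here. A few values were named outside that rule after they were seen, among them the neighbours, FGFR2, CD44, KRT8, KRT18 and EPCAM. The protein comparison that was planned was not run, and identical runs and 50-base windows of GENCODE 29 transcripts were counted in its place. Neighbours were ordered by the RefSeq gene table of GRCh38.p14, with no coordinates taken from it.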

Additional observations from a re-analysis of the deposited data

How the results depend on the processing

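No paired analysis was possible because each line has 1 library, which also leaves no replicate to leave out. A change of pseudocount or of filter cannot turn the sign of a log2 difference, so only the changes of scaling could. Under these the direction of each of the 10 log2 differences held. The counting intervals of ESRP1 (-0.07 to 0.10) and SRRM4 (-0.28 to 0.51) include 0, so their direction is not resolved. NOVA1 ranged from -4.02 to -2.58 and PTBP2 from 0.82 to 1.14. PTBP2 fell short of 2-fold with a pseudocount of 5 CPM, where 0 members were at least 2-fold higher, and with a pseudocount of 0.5 CPM 2 members were at least 2-fold lower, ELAVL2 (-1.13) joining NOVA1. The median of the members was -0.23 without the filter on low values, -0.21 with the TMM scaling undone or the 10 most abundant genes left out, and -0.28 with upper quartile scaling. Undoing the TMM scaling moved the median of all genes from -0.006 to 0.103. With a pseudocount of 5 CPM, 447 genes were at least 2-fold higher and 371 lower, against 923 and 641. With 5 CPM added, the balance of PTBP2 to PTBP1 was 2.19, and that of ELAVL2 to ELAVL1 crossed 1 at 1.02, as adding 5 CPM swamps ELAVL2. Subtracting the neighbours' median, an alternative chosen after the data were seen, turned the sign of ELAVL1 (0.04), PTBP1 (0.11) and ESRP1 (-0.10). The cause was not tested. Depth limits SRRM4, NOVA2 and ELAVL2, which had 41 reads or fewer in each library.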

Other observations

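Among 8 markers of neurons and glia, 2 were measured and went opposite ways. MAP2, a dendritic microtubule protein, had 24.3 CPM in ENZR and 10.2 CPM in Con (ratio 2.39, 2.04 to 2.81). TUBB3, neuronal class III tubulin, had 8.61 CPM in ENZR and 21.0 CPM in Con, 2.43-fold lower (2.06 to 2.88).

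MSI1 is among the 20 measured genes nearest to SRRM4 on chromosome 12, and was the highest of them at 2.36, while the median of the 20 was 0.01.

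The RefSeq promoter table (GRCh38.p14, windows around annotated starts) held 14 windows of 6 of the 10 regulators, so ESRP1, ESRP2, ELAVL1 and RBFOX2 were not searched. CAGGTG, the E-box that ZEB and SNAI factors bind, was found on either strand in 2 of the 14 windows, both of ELAVL2, and in 20.6% of the 35116 windows of the table. TTCAGCACC, the left part of the REST element, was in 0 of the 14 windows and in 0.376% of all windows.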
